A study of Mus musculus with 6 samples.

Results

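The Notch genes described here were 4 receptors (Notch1, Notch2, Notch3 and Notch4), 3 ligands (Jag1, Jag2 and Dll1) and 3 target transcription factors (Hes1, Hey1 and Heyl), chosen by symbol as 10 of the 18182 genes listed over the 6 libraries. They were measured by RNA sequencing of LLC cells, the Lewis lung carcinoma line of the mouse, which were marked with red fluorescent protein (LLC-RFP) and had grown under the skin of wild type C57BL/6 mice. In 3 libraries LLC-RFP cells had been injected without other cells (LLC alone), and in 3 libraries they had been injected together with bone marrow-derived mesenchymal stem cells (LLC with BMSCs), which were bought mouse cells of the same strain. Fluorescent cells were sorted from the tumours of both groups by flow cytometry, so that each library was meant to hold tumour cells and neither the BMSCs nor host cells. The methods name female C57BL/6 mice of 6 weeks for allografts of LLC cells marked with luciferase, and give neither age nor sex separately for the mice of the sequenced tumours. Whether a library came from 1 mouse or from pooled tumours is not given in the sources used here. The comparison asks how these Notch genes differed in tumour cells that had grown beside BMSCs.

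Notch receptors are single-pass proteins at the cell surface that bind ligands of the Jagged and Delta families on neighbouring cells. Binding leads to cleavage of the receptor by an ADAM protease and then by gamma-secretase, and the freed intracellular part enters the nucleus, where it joins the DNA-binding protein RBPJ and switches on target genes, of which the HES and HEY repressors are the best known. A ligand can also hold back receptors of its own cell. In lung cancers the pathway has been described both as promoting and as restraining growth, depending on the tumour type.

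Each library held between 33476347 and 46189113 estimated fragments on genes. Levels are given as FPKM, which scale fragments by the length of the transcript and the total of the library and allow different genes to be compared within a library, and changes as log2 fold changes of LLC with BMSCs over LLC alone, fitted by edgeR to the estimated counts with p-values adjusted over all 13353 genes tested. LLC alone replicate 3 stood apart: compared with the mean over libraries, the median difference on the log2 scale was 0.31 over the fifth of genes that had the shortest lengths and -0.37 over the fifth that had the longest, against -0.19 to 0.18 in the other 5 libraries. The length trend also differed between the groups without that library. LLC with BMSCs replicates 1, 2 and 3 were at -0.19, -0.09 and -0.11 for the shortest genes. For the longest genes they were at 0.18, 0.1 and 0.13. LLC alone replicates 1 and 2 were at 0.06 and 0.04 for the shortest and at -0.02 and 0 for the longest. The sorted cells expressed the keratin Krt8 with means of 95.3 FPKM (LLC alone) and 110.0 FPKM (LLC with BMSCs). The epithelial genes Epcam and Cdh1 did not exceed 5 counts in a library, and Cldn4 was not listed above 0. Krt18, the usual partner of Krt8, had means of 0.0833 and 0.653 FPKM. In such bulk libraries, fewer cells of a type and less RNA per cell cannot be told apart.

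Start-site windows of the receptor with the highest level and of the ligands that moved furthest apart are shown so that the genes behind the main comparisons can be seen as sequence. They were taken from the RefSeq promoter table (build GRCm38.p6), which held 7 of the 10 genes and no entry for Hes1, Hey1 or Heyl, and were trimmed to the bases before the gene's own exons. Capitals mark matches, on either strand, to the GC box GGGCGG, a binding sequence of SP factors, or to the N-box CACNAG, which HES proteins bind. The 3 windows, printed in the direction of transcription, lie at chr3:98013288-98013526 on the plus strand, chr2:137116645-137116770 on the minus strand and chr17:15375977-15376073 on the minus strand.
Notch2: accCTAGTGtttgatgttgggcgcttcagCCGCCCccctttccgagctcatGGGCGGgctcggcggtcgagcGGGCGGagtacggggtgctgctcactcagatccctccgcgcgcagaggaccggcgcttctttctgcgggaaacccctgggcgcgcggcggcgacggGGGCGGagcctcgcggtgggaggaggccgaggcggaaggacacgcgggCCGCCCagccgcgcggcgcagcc
Jag1: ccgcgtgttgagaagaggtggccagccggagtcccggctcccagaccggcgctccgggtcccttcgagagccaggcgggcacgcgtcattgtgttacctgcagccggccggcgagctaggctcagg
Dll1: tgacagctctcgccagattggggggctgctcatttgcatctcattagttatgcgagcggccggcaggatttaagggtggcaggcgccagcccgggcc
In the whole windows of 300 bases, Notch2 held 7 GC boxes and 1 N-box, and neither the Jag1 window nor this Dll1 window held a match to either. A second Dll1 window, not printed here, held 1 N-box and no GC box. GC boxes were also found at Notch1 (5), Jag2 (5) and Notch3 (4), and N-boxes at Notch1 (3) and Notch3 (2). The Notch4 window held no match to either. GC boxes were present in 35.7% and N-boxes in 42.5% of the 32851 promoters of the table. The RBPJ sequence TGGGAA, present in 25.6% of promoters, and the HEY sequence CACGTG, present in 7.2%, were in none of the 8 windows of the 7 genes. The STAT sequence TTCNNNGAA, present in 8.3% of promoters, was found once, in the Notch3 window. The share of G and C was 73.0% at Notch2, 55.7% at Jag1 and 62.7% at this Dll1 start, against a median of 52.7% over all promoters.

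All 4 receptors were called higher in LLC with BMSCs, beside 31.5% of all tested genes. FPKM ranges did not overlap between the groups for 70.6% of all tested genes. Notch2 was by far the most abundant of the 10 genes. It was listed at 26.95, 27.32 and 16.24 FPKM in the libraries of LLC alone and at 42.39, 35.67 and 35.1 FPKM in those of LLC with BMSCs. The groups did not overlap, and the lowest value belonged to LLC alone replicate 3. Notch2 rose from 23.5 ± 6.29 to 37.7 ± 4.05 FPKM (SD, n = 3), a log2 fold change of 0.66 (SE 0.19, edgeR adjusted p = 0.0165).

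Notch1, a receptor best known from T cell development, was expressed at a much lower level. Its FPKM was 0.65, 0.6 and 0.43 in LLC alone and 1.04, 0.93 and 0.9 in LLC with BMSCs, from 187 to 438 counts per library. Every library of LLC with BMSCs was above every library of LLC alone. Notch1 rose from 0.56 ± 0.115 to 0.957 ± 0.0737 FPKM (SD, n = 3), by 0.75 on the log2 scale (SE 0.15, edgeR adjusted p = 0.00354).

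Notch4, a receptor known mainly from endothelial cells, was listed at 0.08, 0.1 and 0.1 FPKM in LLC alone and at 0.27, 0.26 and 0.23 FPKM in LLC with BMSCs. These values rested on 21 to 29 counts per library in LLC alone and 65 to 80 counts in LLC with BMSCs. The groups were well apart and tight within themselves. The rise, from 0.0933 ± 0.0115 to 0.253 ± 0.0208 FPKM (SD, n = 3), had a log2 fold change of 1.47 (SE 0.17, edgeR adjusted p = 0.000193).

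Notch3, a receptor known mainly from mural cells of blood vessels, was close to the limit of detection in LLC alone. It had 3, 0 and 6 counts in the libraries of LLC alone and 39, 28 and 28 counts in those of LLC with BMSCs, which is at most 0.02 FPKM against 0.08 to 0.11 FPKM. No library of LLC alone and all 3 of LLC with BMSCs passed the count minimum of the test, so that Notch3 was tested only through the group in which it was high. Over the summed counts of 9 and 95, the ratio at equal depth had an exact 95% interval of 5.06 to 22.6 that covers counting error only. The fitted log2 fold change was 3.26 (SE 0.5, edgeR adjusted p = 0.000797).

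The shares of the more abundant receptors, Notch2 and Notch1, overlapped between groups. Notch2 made up 96.7% to 97.5% of the summed receptor FPKM in LLC alone and 96.6% to 96.8% in LLC with BMSCs, and Notch1 made up 2.14% to 2.56% and 2.37% to 2.52%. The exact two-sided permutation p was 0.2 for Notch2 and 0.6 for Notch1. The shares of Notch4 and Notch3 were small in every library but did not overlap between groups. For Notch4 the share was 0.414% ± 0.161 in LLC alone and 0.651% ± 0.0464 in LLC with BMSCs (SD, n = 3), and for Notch3 it was 0.0517% ± 0.0611 and 0.229% ± 0.0189, each with an exact permutation p of 0.1, the smallest that 3 against 3 libraries allow. Summed receptor FPKM ran from 16.8 to 28.0 in LLC alone and from 36.3 to 43.8 in LLC with BMSCs.

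The receptor transcripts are long, and their fitted changes moved with the length trend of the libraries. In LLC alone replicate 3, log2 CPM (counts scaled by library total) fell by 0.74 for Notch2, whose transcript is 10506 bases long, and by 0.55 for Notch1, at 9497 bases, compared with the mean of the other 2 libraries of LLC alone. For Notch4, at 6604 bases, the same difference was 0.13. Outside the receptors it was -0.35 for Jag1, at 5493 bases, and -0.48 for Dll1, at 3444 bases. For Jag2, Hes1 and Hey1 it was 0.1, 0.37 and 0.84. Notch2 and Notch1, the longest of these transcripts, had the lowest values, and Hes1 and Hey1, the shortest, had the highest. The genes between them did not follow the order of length. With the length trend of each library removed, the log2 fold change was 0.31 for Notch2, 0.40 for Notch1, 1.17 for Notch4 and 2.93 for Notch3, each still past the threshold. Without LLC alone replicate 3, the values were 0.46 for Notch2, 0.59 for Notch1, 1.53 for Notch4 and 4.14 for Notch3. Leaving out that library did not remove the difference in length trend between the groups. The rise of Notch2 missed the threshold in 1 alternative, without LLC with BMSCs replicate 1 (log2 fold change 0.57, edgeR adjusted p = 0.0682).

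**Figure D1:**
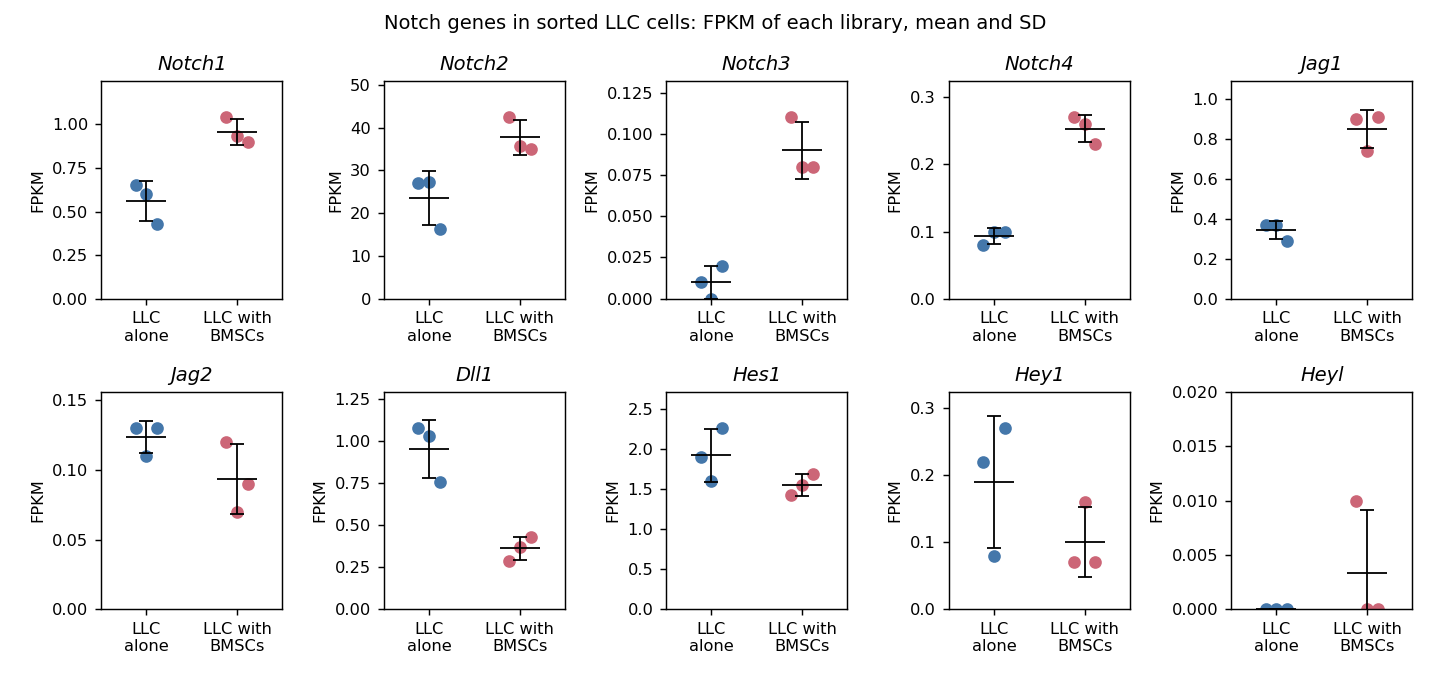
FPKM (linear axis from 0, a scale of its own for each gene) of the 10 Notch genes in the 3 libraries of LLC alone (blue) and the 3 of LLC with BMSCs (red), with the mean (long bar) and SD (error bar) of each group. The groups are apart for the 4 receptors, Jag1 and Dll1, as they are for 70.6% of all tested genes. They overlap for Jag2, Hes1 and Hey1, while Heyl was listed above 0 in 1 library.

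Among the ligands, Jag1 rose and Dll1 fell. Jag1, the Jagged ligand most often studied in tumours, was listed at 0.37, 0.37 and 0.29 FPKM in LLC alone and at 0.9, 0.74 and 0.91 FPKM in LLC with BMSCs, from 67 to 94 counts and from 178 to 218 counts per library. The lowest library of LLC with BMSCs was above the highest of LLC alone. Jag1 rose from 0.343 ± 0.0462 to 0.85 ± 0.0954 FPKM (SD, n = 3), with a log2 fold change of 1.29 (SE 0.14, edgeR adjusted p = 0.000165). Its transcript of 5493 bases is also long, and the log2 fold change was 1.04 with the length trend removed.

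Dll1, a ligand of the Delta family, had the opposite pattern. It was listed at 1.08, 1.03 and 0.76 FPKM in LLC alone, from 116 to 169 counts per library, and at 0.29, 0.37 and 0.43 FPKM in LLC with BMSCs, from 44 to 64 counts. All 3 libraries of LLC with BMSCs were below those of LLC alone. Dll1 fell from 0.957 ± 0.172 to 0.363 ± 0.0702 FPKM (SD, n = 3), a log2 fold change of -1.41 (SE 0.2, edgeR adjusted p = 0.000506), and it was -1.53 with the length trend removed.

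Jag2, the other Jagged ligand, was at 0.13, 0.11 and 0.13 FPKM in LLC alone and at 0.12, 0.07 and 0.09 FPKM in LLC with BMSCs, from 13 to 24 counts per library. The groups overlapped at this depth. Its log2 fold change of -0.45 (SE 0.24) did not pass the test (edgeR adjusted p = 0.139), but with the length trend removed it was -0.63 and just past the threshold (edgeR adjusted p = 0.0482).

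The opposite changes of Jag1 and Dll1 exchanged their order within the sorted libraries. Dll1 had 68.4%, 68.2% and 64.4% of the summed FPKM of the 3 ligands in LLC alone, and 22.1%, 31.4% and 30.1% in LLC with BMSCs. Jag1 had 23.4%, 24.5% and 24.6% in LLC alone, and 68.7%, 62.7% and 63.6% in LLC with BMSCs. Dll1 was thus the leading ligand in every library of LLC alone and Jag1 in every library of LLC with BMSCs.

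The mean share of Jag1 was 24.2% ± 0.649 in LLC alone and 65.0% ± 3.22 in LLC with BMSCs (SD, n = 3), a difference of 40.9 percentage points. The share of Dll1 differed by -39.1 points, from 67.0% ± 2.24 to 27.9% ± 4.99. Each exact two-sided permutation p was 0.1, and 0.175 after adjustment over the 7 receptor and ligand shares compared. Because the 3 shares sum to the whole, they are not independent of each other. The share of Jag2 was 8.84% ± 1.94 and 7.13% ± 1.77, which overlapped (exact permutation p = 0.3). Expressed as log2 of Jag1 FPKM over Dll1 FPKM, the libraries of LLC alone were at -1.55, -1.48 and -1.39, and those of LLC with BMSCs were at 1.63, 1.0 and 1.08. The sum of the 3 ligands ranged from 1.18 to 1.58 FPKM without BMSCs and from 1.18 to 1.43 FPKM with them.

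**Figure D2:**
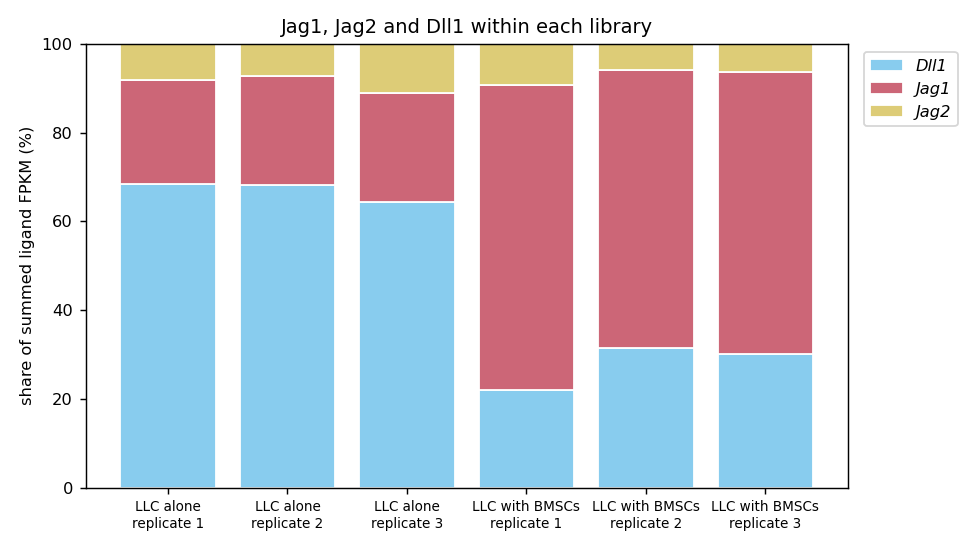
Share of Dll1 (blue), Jag1 (red) and Jag2 (yellow) in the summed FPKM of these 3 ligands, in percent, with 1 bar for each library. Dll1 takes from 64.4% to 68.4% of the bar in LLC alone, and Jag1 from 62.7% to 68.7% in LLC with BMSCs.

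Neither of the target transcription factors that could be tested was called higher or lower. Hes1, the target gene most used as a readout of the pathway, was listed at 1.9, 1.6 and 2.26 FPKM in LLC alone and at 1.42, 1.55 and 1.69 FPKM in LLC with BMSCs. The groups overlapped, since LLC alone replicate 2 lay below the highest library of LLC with BMSCs. The means were 1.92 ± 0.33 and 1.55 ± 0.135 FPKM (SD, n = 3), and the log2 fold change of -0.33 (SE 0.15) missed the threshold (edgeR adjusted p = 0.0947). Without LLC alone replicate 2 it was -0.44 and past the threshold (edgeR adjusted p = 0.0388).

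Hey1, a repressor of the HEY family, was near the count minimum, with 22, 6 and 27 counts in LLC alone and 7, 15 and 7 counts in LLC with BMSCs. These are 0.19 ± 0.0985 and 0.1 ± 0.052 FPKM (SD, n = 3), and the groups overlapped. Its log2 fold change of -0.99 (SE 0.47) did not pass (edgeR adjusted p = 0.103), and without LLC alone replicate 2, the lowest library of that group, it was -1.29 and did (edgeR adjusted p = 0.023). Heyl, a related repressor, had 1 count in LLC with BMSCs replicate 1 and 0 in the other 5 libraries, and a count of 3 would have stood for at most 0.0198 FPKM, so that no comparison could be made at this depth. Summed over the 3 target genes, FPKM ran from 1.68 to 2.53 in LLC alone and from 1.5 to 1.76 in LLC with BMSCs.

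Over the whole group, 5 of the 9 genes tested were higher in LLC with BMSCs (Notch1, Notch2, Notch3, Notch4 and Jag1), 1 was lower (Dll1) and 3 were not called (Jag2, Hes1 and Hey1). Much of the transcriptome differed between these groups: 31.5% of all tested genes were called higher and 31.3% lower. FPKM ranges did not overlap between groups for 6 of the 9 genes tested, the 6 called ones, and for 70.6% of all tested genes. The median log2 fold change was 0.66 over the 9 genes, against 0.01 over all tested genes. That median is the value of Notch2, which was 0.31 with the length trend removed and 0.46 without LLC alone replicate 3. By role the median was 1.11 for the 4 receptors, of which Notch3 was tested only through its high group. It was -0.45 for the 3 ligands and -0.66 for the 2 target genes tested.

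**Figure D3:**
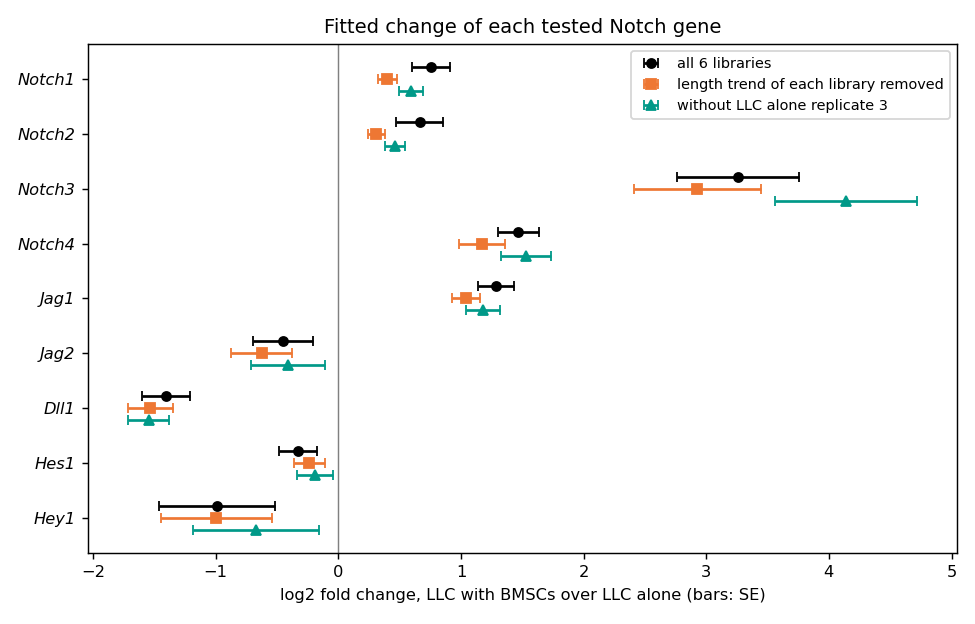
Fitted log2 fold change (LLC with BMSCs over LLC alone, horizontal axis, bars show SE) of the 9 Notch genes tested, from all 6 libraries (circles), with the length trend of each library removed (squares) and without LLC alone replicate 3 (triangles). Notch2 moves from 0.66 to 0.31 and Notch1 from 0.75 to 0.40 with the trend removed, whereas Jag1 and Dll1 keep 1.04 and -1.53.

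The order of the 10 genes by mean FPKM also shows the exchange of Jag1 and Dll1. In LLC alone it ran from Notch2 over Hes1, Dll1, Notch1, Jag1, Hey1, Jag2, Notch4 and Notch3 to Heyl, and the ranges of neighbours overlapped for Hey1 with Jag2 and for Notch3 with Heyl. In LLC with BMSCs it ran from Notch2 over Hes1, Notch1, Jag1, Dll1, Notch4, Hey1, Jag2 and Notch3 to Heyl, with overlap between Notch1 and Jag1, between Hey1 and Jag2 and between Jag2 and Notch3. Notch2 and Hes1 held the leading places in both groups.

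The rest of the pathway moved in both directions. Of 49 further pathway genes grouped by role, 48 were listed and 43 tested. Of these, 14 were higher, 12 were lower and 17 were not called, with a median log2 fold change of 0.04. These counts stand beside the 31.5% and 31.3% of all tested genes, and so do the counts of each list by role. With the length trend removed, 11 were higher and 19 lower, and without any single library of LLC with BMSCs, 7 to 9 were higher. The 31.5% and 31.3% belong to the main fit, and the shares of all genes called in these other fits are not given here. Dlk2 and Dner were singled out by size and level. The other pathway genes named here with values were chosen after their values were seen.

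Of the 5 other ligands and ligand-like genes, 4 were tested, of which 3 were lower, as Dll1 was, and 1 was higher. Dll3, a Delta-like protein that does not activate receptors on other cells, had 0 to 8 counts per library and was not tested. Dlk2, a Delta-like protein without the domain that activates receptors, fell from 1.92 ± 0.121 to 0.39 ± 0.04 FPKM (SD, n = 3), a log2 fold change of -2.30 (SE 0.15, edgeR adjusted p = 1.21e-05). Dner, a Delta-like membrane protein known from neurons, fell from 1.06 ± 0.0608 to 0.433 ± 0.0493 FPKM (SD, n = 3), a log2 fold change of -1.32 (SE 0.12, edgeR adjusted p = 7.12e-05). Dll4, the Delta ligand known from sprouting vessels, also fell, by 1.48 on the log2 scale (edgeR adjusted p = 0.0052), from 23 to 42 counts per library to 9 to 16. Dlk1, a relative of Dlk2, went the other way. It had 0 counts in all 3 libraries of LLC alone and 38, 23 and 49 counts in LLC with BMSCs, at least 11.4-fold higher when measured against 3 counts per library, and it was tested only through the group in which it was high. The summed FPKM of the 5 genes of this list ran from 2.99 to 3.48 in LLC alone and from 1.07 to 1.15 in LLC with BMSCs.

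Of the other HES, HEY and feedback genes, those called were higher. Nrarp, a feedback inhibitor that binds the Notch intracellular domain, was listed at 0.42, 0.53 and 0.46 FPKM without BMSCs and at 0.76, 0.91 and 0.84 FPKM with them, and these values did not overlap. It rose by 0.81 on the log2 scale (SE 0.15, edgeR adjusted p = 0.002). Hes6, a family member that counteracts Hes1, rose from 1.73 ± 0.346 to 2.47 ± 0.108 FPKM (SD, n = 3), by 0.50 on the log2 scale (edgeR adjusted p = 0.019). Hes7 was not called (log2 fold change 0.20, edgeR adjusted p = 0.3), and Hes2, Hes3, Hes5 and Hey2 had at most 3 counts in every library. Of the 3 genes tested in this list, 2 were therefore higher and none of the 3 lower.

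Of the 10 cleavage enzymes, 4 were higher and 2 lower. Adam17, a protease that can shed the outer part of the receptor, rose from 36.7 ± 2.88 to 56.5 ± 0.512 FPKM (SD, n = 3), by 0.60 on the log2 scale (edgeR adjusted p = 0.000178). Adam10, the other ADAM protease of this list, rose less, by 0.27 (edgeR adjusted p = 0.0259). Furin, which cuts the receptor precursor, rose by 0.44 (edgeR adjusted p = 0.00172). Among the subunits of gamma-secretase, Psenen fell from 67.1 ± 7.98 to 35.5 ± 0.455 FPKM (SD, n = 3), a log2 fold change of -0.94 (edgeR adjusted p = 7.8e-05). Ncstn and Aph1a, also subunits, were not called, at log2 fold changes of -0.06 and -0.07.

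Of the 5 genes for receptor glycosylation, which alters the choice of ligand, Mfng was higher (log2 fold change 0.71, edgeR adjusted p = 0.0059), and Lfng, Rfng, Pofut1 and Poglut1 were not called. Of the 10 genes of the nuclear complex and its repressors, 1 was higher and 4 were lower. Rbpj was the most abundant of the pathway genes named here, and its level went from 166.0 ± 17.6 to 144.0 ± 3.16 FPKM (SD, n = 3). The log2 fold change of Rbpj, -0.22, passed the test narrowly (edgeR adjusted p = 0.0437), and the FPKM ranges of the groups overlapped. Maml3, a coactivator of the Mastermind family, fell by 0.72 on the log2 scale (edgeR adjusted p = 0.00185). Of the 11 tested genes for ubiquitin ligases, endocytosis and turnover, 5 were higher and 3 lower. Mib1, a ligase that activates ligands by endocytosis, rose by 0.76 on the log2 scale (SE 0.27, edgeR adjusted p = 0.0407), and its lowest library was LLC alone replicate 3 at 4.23 FPKM, against 8.77 and 10.25 FPKM in the other libraries of that group. Neurl1a, a ligase of the Neuralized family, fell by 0.74 on the log2 scale (edgeR adjusted p = 0.000176).

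**Figure D4:**
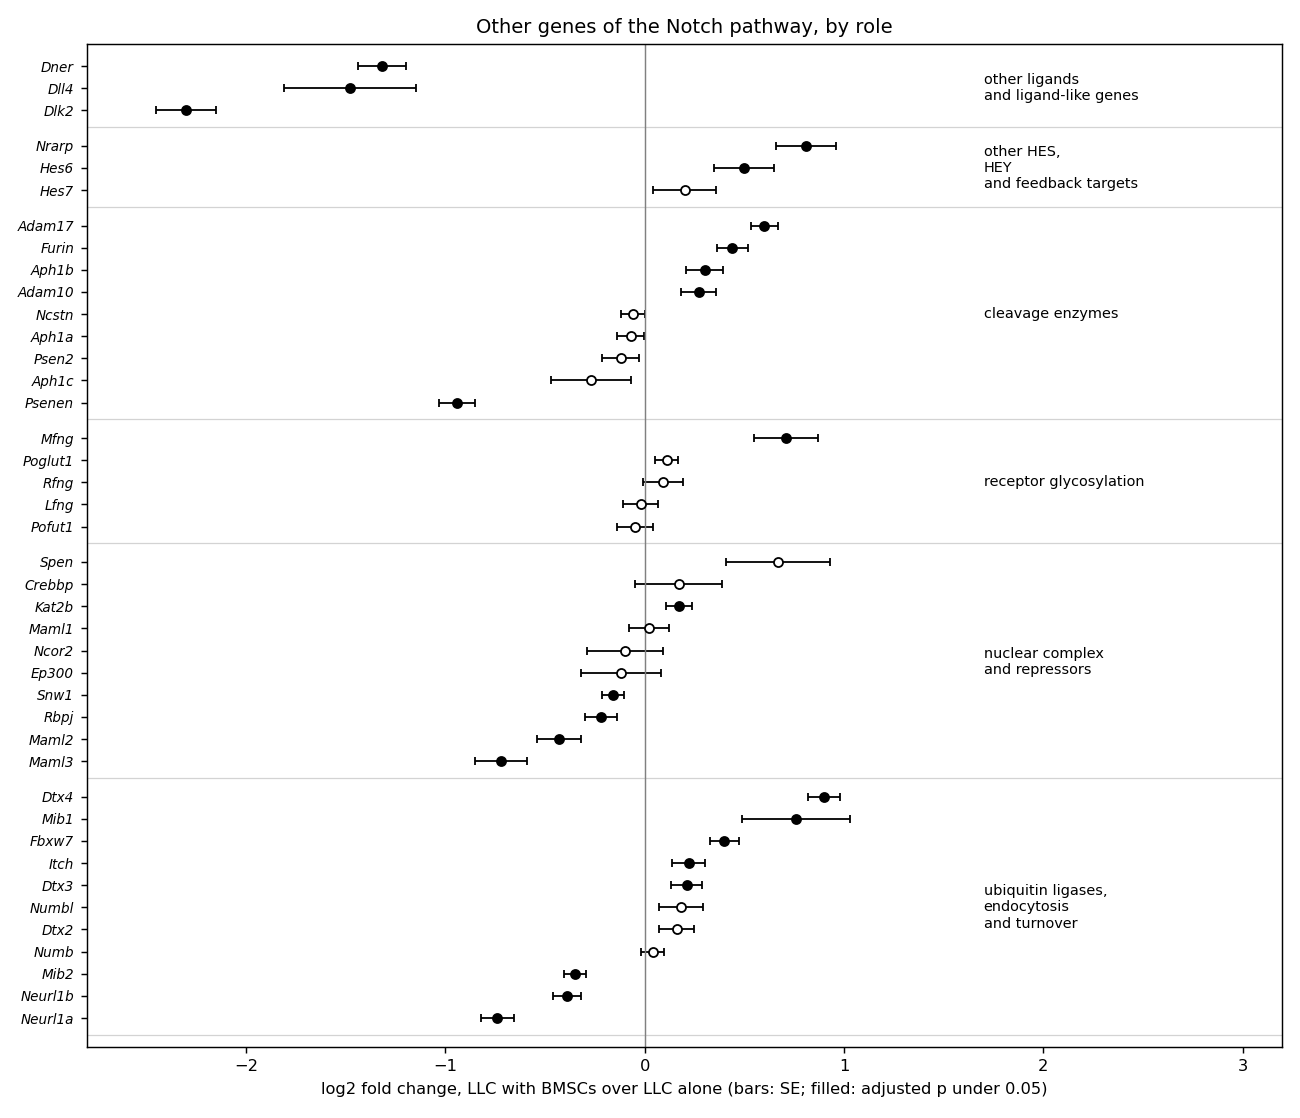
Fitted log2 fold change (LLC with BMSCs over LLC alone, horizontal axis, bars show SE) of the other pathway genes tested, grouped by role, with filled points for an adjusted p under 0.05. Dlk1 is left out because it had 0 counts in LLC alone, and 1 gene is not shown. Dlk2 at -2.30, Dll4 at -1.48 and Dner at -1.32 lie farthest from 0, all on the lower side.

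Notch genes differ between cell types, and markers of other cells that the sort could have held are given here, beside 31.5% of all tested genes called higher and 31.3% called lower. Markers other than the 2 most abundant of a list and those at 0 were named after their values were seen. Of 10 endothelial markers, which matter for Notch4, Jag1 and Dll4, 3 were tested, 0 were higher and 1 was lower. Their summed FPKM ran from 1.24 to 1.75 in LLC alone and from 0.94 to 1.18 in LLC with BMSCs, led by Esam and Pecam1, while Tie1, Emcn and Cldn5 had at most 3 counts in every library. The fall of the sum was that of Esam, while Pecam1 and Vwf were tested and not called. The other members were too low to be tested and went in both directions. Cdh5 had 1 to 2 counts per library in LLC alone and 8 to 14 in LLC with BMSCs. Emcn and Erg, at 0 in LLC alone, had 1 to 2 and 3 to 4 counts in LLC with BMSCs. Tek had 2 to 8 counts in LLC alone and 0 to 3 in LLC with BMSCs, and its groups overlapped, as those of Kdr, Tie1 and Cldn5 did. Of 9 mural cell markers, which matter for Notch3, 6 were tested, 3 were higher and 2 lower, with summed FPKM from 8.48 to 10.2 in LLC alone and from 10.8 to 12.4 in LLC with BMSCs. Pdgfrb, at 6.59 and 8.75 FPKM, and Des, at 1.88 and 1.15 FPKM, led that list, and Kcnj8 was at 0 in LLC alone. Larger changes were those of Acta2, with 1 to 6 counts per library in LLC alone and 76 to 80 in LLC with BMSCs, Rgs5, with a log2 fold change of 1.52, and Cspg4, with one of -2.59.

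Most tested markers of stromal cells and macrophages were higher in LLC with BMSCs, beside 31.5% of all tested genes. Of 9 mesenchymal stromal markers, 7 were tested and 7 were higher, and their summed FPKM ran from 69.9 to 81.5 in LLC alone and from 147 to 157 in LLC with BMSCs. Col3a1, with a log2 fold change of 1.26, and Eng, with means of 28.7 and 34.8 FPKM, led the list, and Thy1 and Cxcl12 were at 0 in LLC alone. Of 8 macrophage markers, 6 were tested, 5 were higher and 1 lower, with summed FPKM from 5.31 to 6.35 in LLC alone and from 5.77 to 6.27 in LLC with BMSCs. Cd68 fell from 5.55 to 3.03 FPKM, Itgam rose from 0.00667 to 1.17 FPKM, and Adgre1 and C1qa were at 0 in LLC alone. Of 6 lymphocyte markers none of the 4 listed could be tested, with summed FPKM of 0.12 to 0.17 in LLC alone and 0.07 to 0.16 in LLC with BMSCs, led by Cd79a and Cd3g. Cd2 and Ms4a1 were at 0 in every library. Of the 5 epithelial and carcinoma markers, 2 were tested and both were higher, Krt8 and Krt18. Krt18, Acta2, Adgre1, Itgam and the stromal marker Col1a1 passed the count minimum only in LLC with BMSCs, so that they were tested only through the group in which they were high. Mrc1 and Ptprc passed the count minimum in 1 library without BMSCs and in all 3 with them. The filter asked for 3 libraries, so that they too were tested only through their high group. Of the 5 macrophage markers called higher, only Csf1r passed the minimum in every library. The part of other cells in the levels of the Notch genes was not tested.

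Exons of 4 of the Notch genes overlap other annotated genes in GENCODE, release M21. Dll1 overlaps A930024N18Rik, Notch3 overlaps Gm17276 and Notch1 overlaps 0610009E02Rik and Gm13568, each on the opposite strand, and Notch2 overlaps Gm42820 on the same strand. The strand setting of the counting is not given in the sources used here, so that fragments from stretches shared on opposite strands cannot be told apart. Strand could not part Notch2 from Gm42820 in any case. None of these partners was listed in the data, and the size of the overlaps was not measured.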

How the data were processed

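Total RNA was isolated from sorted LLC cells and enriched for poly-A mRNA with oligo-dT beads. The libraries were sequenced as paired-end reads of 100 bp on the BGISEQ-500, although the labels name Illumina protocols. The submitters' processing notes name HISAT, StringTie, Cufflinks, GATK and build mm8, and their roles, the quantification program, the annotation and the strand setting are not given in the sources used here. The deposited values are estimated counts for genes and transcripts, not normalized by the authors, and FPKM values scaled by transcript length and library total. Counts that were not whole made up 21.9% to 23.2% of a library's genes, and none of the Notch genes had one. The FPKM table of the whole series was not used.

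Groups and replicate numbers followed the sample labels. Nothing says that replicates came from separate mice, so that p-values measure the spread between these libraries. Within groups, the closest libraries differed by 1.69 times (LLC with BMSCs 2 and 3) and 1.96 times (LLC alone 1 and 2) the sampling noise (median chi-square over its expectation), and all 6 libraries were counted. Estimated counts were rounded and tested with edgeR 4.0.16 in R 4.3.3 (TMM, default filter with a cutoff of 0.226 CPM in at least 3 libraries, quasi-likelihood test, Benjamini-Hochberg adjustment over 13353 genes, threshold 0.05). The SE is the absolute log2 fold change over the square root of F. FPKM values and shares were compared by exact two-sided permutation tests over libraries, which give no p below 0.1 for 3 against 3. Intervals and the floor of 3 counts cover counting error only.

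The Notch genes and the lists of pathway genes and markers were chosen with earlier results of these data known. All 10 Notch genes are named. A pathway gene that enters the counts is not reported here by name. Of the other pathway genes, Dlk2 and Dner were named by rule, since the adjusted p was under 0.05, the log2 fold change at least 1 in size and a group mean at least 1 FPKM, and of each marker list the 2 markers with the highest mean FPKM. Further pathway genes and markers were named after their values were seen, and markers at 0 were added. Alternatives used DESeq2 1.42.0, limma 3.58.1 and length and GC trends fitted with mgcv 1.9.3, for which 93.8% of tested genes had a GC value. Motifs were searched on both strands of RefSeq windows from 250 bases before to 50 bases after the start, and the GC box and N-box were added after the windows were seen.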

Additional observations from a re-analysis of the deposited data

How the results depend on the processing

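Up to 19 alternatives were run for each gene. Notch1, Notch4, Jag1, Dll1, Dlk2 and Dner kept their direction and stayed past the threshold in every alternative run for them, with log2 fold changes of 0.33 to 0.88 for Notch1, 0.2 to 1.55 for Notch4, 0.46 to 1.38 for Jag1, -1.55 to -0.52 for Dll1, -2.39 to -1.07 for Dlk2 and -1.47 to -0.52 for Dner, the values nearest 0 on the log2(FPKM + 1) scale. Notch3, at 0.11 to 4.14, was tested only through its high group and had no value with 10 counts required in every library, so that its calls are no sign of stability. Notch2, at 0.31 to 0.82, lost its call without LLC with BMSCs replicate 1. Hes1 and Hey1 gained one without LLC alone replicate 2, and Jag2 gained one with the length trend removed. The causes were not tested.

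Of the Notch genes, 1 was called higher and 0 lower by limma on log2(FPKM + 1) and 1 and 0 on log2(FPKM + 0.1), where the minimum of 1 FPKM in 3 libraries left Notch2 and Hes1 to test. With a log2 fold change of 1 or more in size also required, 3 were higher. With the length trend removed, 2 were lower. Leaving out each library in turn gave 4 to 5 higher and 1 to 3 lower, with 3 without LLC alone replicate 2. Of the other pathway genes, 8 were higher with the close replicate pairs summed, and 1 was higher and 3 lower with a log2 fold change of at least 1. With the length trend, or the length and GC trends, removed, 19 were lower. Leaving out each library gave 7 to 16 higher, with 7 without LLC with BMSCs replicate 2 and 9 without replicate 1 or 3 of that group, and 10 to 14 lower. The shares of all genes called in these alternatives are not given here, so that the counts have no background beside them.

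The replicate numbers did not pair the libraries: the correlations of same-numbered deviations were 0.076, -0.106 and 0.057, and 2 of 6 libraries correlated best with their own number. With a replicate block, 5 Notch genes were higher and 1 lower, and 14 other pathway genes were higher and 10 lower. The shares of transcripts within genes gave no value, since each Notch gene had 1 transcript listed. Depth limits Heyl, Notch3, Hey1, Jag2 and Dlk1, and 3 libraries per group limit every exact test.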
